A study of Mus musculus with 4 samples.

Results

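The genes described here encode 9 proteins through which the liver takes up, stores, releases and makes glucose: Gckr, G6pc, Pck1, Fbp1, Pklr, Slc2a2, Gys2, Pygl and Insr. They were chosen by name, and every array feature whose transcript belongs to 1 of these genes was used. All 9 had a feature, out of 22909 genes that could be named on the array, and all 9 passed the filters, as did 18205 genes in all. The array holds 1 feature for each gene except Insr, which has 2, so that 10 features carry the values below.

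RNA was taken from fetal livers at 14.5 days post coitum (dpc), and Cy3-labeled copies of it were hybridised to 4 single-colour Agilent arrays. The dams were C57BL/6J mice, which received either the control diet (CD) or the high-fat diet (HFD) while pregnant. Fat supplied 4.3% of the energy in the CD and 60% in the HFD, protein 19.2% and 20%, and carbohydrate 67.3% and 20%. Each diet had 2 arrays, which the submitters describe as biological replicates, and the number of fetuses or dams behind an array is not given in the sources used here. All fetuses developed in dams of this inbred strain, with no transgene or drug, and the comparison asks whether the mother's diet was accompanied by another level of these transcripts in the fetal liver.

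The liver keeps blood glucose steady by working in both directions. After a meal, glucose enters hepatocytes through a low-affinity transporter, is phosphorylated, and is stored as glycogen or broken down to pyruvate. In fasting, glycogen is degraded and new glucose is built from lactate and amino acids, and the last step, removal of the phosphate, lets glucose leave the cell. The fetus receives its glucose through the placenta, and the enzymes of glucose production are mostly switched on around birth. The fetal liver at this stage is also the main site of red cell formation, so that hepatocyte precursors and erythroid cells both contribute RNA.

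The level of a gene is given on a log2 scale relative to the 75th percentile of all features of the same array, so that 0 is the brightness of the 75th percentile and 1 unit is a 2-fold difference. Values of a group are given with replicate 1 first. Levels of different genes are not set against each other, because each feature binds its target with its own strength. The median intensity of an array lay between 70.2 and 120.5, and 65.4% to 70.0% of the spots were well above background. All 14 hepatocyte markers, among them the genes of albumin (Alb) and alpha-fetoprotein (Afp), and all 9 erythroid markers were well above background on every array. The labels call all 4 samples female. However, the Y-linked transcripts Ddx3y, Eif2s3y, Kdm5d and Uty had intensities between 147.9 and 3479 on the replicate 1 arrays of both diets and between 3.05 and 11.4 on the replicate 2 arrays. Xist, made from the inactive X chromosome, had intensities of 3.43 and 8.48 on the replicate 1 arrays and 448 and 543 on the replicate 2 arrays. The library labels of the replicate 1 arrays were thus at odds with these transcripts in both groups, and each diet had 1 array of either kind. The differences between the diets are therefore also given within replicate 1 and within replicate 2.

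None of the 9 genes passed the cutoffs of an unadjusted limma p of 0.05 and a 2-fold change, where 0.769% of all tested features and likewise 0.769% of all named genes did. At an unadjusted limma p under 0.05 alone the count was also 0 of 9, by limma without a replicate block and by the methods' t-test, against 2.84% of all named genes in limma. After Benjamini-Hochberg adjustment limma called 0 of 41332 features, of which 1382 had an unadjusted p under 0.05. Of the 9 genes, 5 had a higher and 4 a lower mean under HFD. Their median log2 difference was 0.06, beside 0.04 over all named genes, and with quantile normalization 4 were higher and 5 lower with a median of -0.04. A filter on features well above background on both arrays of a diet left out G6pc. Of the 8 genes kept by it, 5 were higher and 3 lower, with a median of 0.16. Pck1, which encodes the cytosolic enzyme that commits carbon to new glucose, had the largest difference of the 9, 0.77 on the log2 scale. The smallest p that an exact permutation test of 2 arrays against 2 can give is 0.333, so that this test cannot reach 0.05 for any single gene.

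The genes of glucose production are described first. Pck1 had levels of -3.97 and -3.22 under CD and -3.10 and -2.56 under HFD. Both HFD arrays lay above both CD arrays, although HFD replicate 1 was only slightly above CD replicate 2. The group means were -3.60 ± 0.53 (SD, n = 2) for CD and -2.83 ± 0.38 (SD, n = 2) for HFD, which is a 1.70-fold higher mean in the HFD group with a 95% interval from 0.90-fold to 3.22-fold. In limma the log2 difference of 0.77 had a standard error of 0.35 (unadjusted p = 0.083, adjusted p = 1.00), and it did not pass. As intensities these were 68.4 and 75.6 under CD and 113.2 and 154.5 under HFD, and the feature was well above background on all 4. The CD arrays differed from each other by 0.75, about as much as the diets did.

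The call for Pck1 rested on single arrays. Without CD replicate 2 the log2 difference was 1.14 (limma, unadjusted p = 0.036, adjusted p = 0.335), and with HFD replicate 1 left out it was 1.04 (limma, unadjusted p = 0.040, adjusted p = 1.00), and both passed the cutoffs, as did 1.74% and 2.10% of all tested features. In such a fit 1 diet has a single array, which is assumed to vary like the arrays of the other diet. It was 0.39 when CD replicate 1 was left out and 0.50 when HFD replicate 2 was, and neither passed. With the replicate number as a block in limma, Pck1 was the 1 gene of the 9 with an unadjusted p under 0.05 (unadjusted p = 0.021, adjusted p = 1.00), where 3.69% of all tested features had one, and at 1.70-fold it did not pass both cutoffs.

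Fbp1 encodes fructose-1,6-bisphosphatase, which reverses a committed step of glycolysis. Its levels were -0.68 and -0.92 under CD and -0.39 and -0.68 under HFD. The groups did not overlap, but CD replicate 1 and HFD replicate 2 were nearly level. The log2 difference was 0.27 with a 95% interval from -0.26 to 0.80 (limma, unadjusted p = 0.25, adjusted p = 1.00), so that it did not pass. Pck1 and Fbp1 were the 2 genes of the 9 with both HFD arrays above both CD arrays, where 23.0% of all named genes had this arrangement. The reverse arrangement occurred for 0 of the 9, against 10.1% of all named genes.

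G6pc, the catalytic subunit of glucose-6-phosphatase, which releases free glucose, was near the limit of the assay. Its intensities were 30.4 and 15.7 under CD and 25.6 and 16.0 under HFD. It was well above background on replicate 1 and not on replicate 2 of each diet, so that 1 array of each group measured it. On those arrays the levels were -5.14 for CD and -5.24 for HFD. Over all 4 arrays the log2 difference was -0.22, with a 95% interval from -0.95 to 0.51 (limma, unadjusted p = 0.47, adjusted p = 1.00).

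The promoters of these genes of glucose production, Pck1, Fbp1 and G6pc, are shown, and a link between their letters and the levels above was not tested. They are RefSeq sequences of build GRCm38.p6, from 250 bases before to 50 bases after the annotated start of transcription, and the table held 8 promoters for 7 of the 9 genes. Gys2 and Insr are the others. Capitals mark matches on either strand. ACGTCA was searched as the core of a cAMP response element, and the letters CACGTG were searched as an E-box. For the liver factor HNF1 the letters were GTTAAT, which are part of its longer motif. A GATA motif was searched as AGATAA, and the box known by the letters it holds, of erythroid and other promoters, was searched as CCACCC. The TATA box was searched with the 6 letters TATAAA. The regions are chr2:173152823-173153122, plus strand, for Pck1, chr13:62888233-62888532, minus strand, for Fbp1, and chr11:101367466-101367765, plus strand, for G6pc.
Pck1: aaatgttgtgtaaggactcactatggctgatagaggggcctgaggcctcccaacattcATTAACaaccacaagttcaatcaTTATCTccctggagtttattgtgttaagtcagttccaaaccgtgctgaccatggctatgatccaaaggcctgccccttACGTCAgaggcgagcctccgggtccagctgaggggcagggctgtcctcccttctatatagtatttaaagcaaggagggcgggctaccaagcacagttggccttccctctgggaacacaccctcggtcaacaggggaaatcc
Fbp1: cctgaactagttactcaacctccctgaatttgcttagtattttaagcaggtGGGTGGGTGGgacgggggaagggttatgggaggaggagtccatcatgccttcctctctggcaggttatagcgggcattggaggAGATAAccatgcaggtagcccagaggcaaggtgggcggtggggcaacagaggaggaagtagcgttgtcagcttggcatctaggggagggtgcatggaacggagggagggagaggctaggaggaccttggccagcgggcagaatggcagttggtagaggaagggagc
G6pc: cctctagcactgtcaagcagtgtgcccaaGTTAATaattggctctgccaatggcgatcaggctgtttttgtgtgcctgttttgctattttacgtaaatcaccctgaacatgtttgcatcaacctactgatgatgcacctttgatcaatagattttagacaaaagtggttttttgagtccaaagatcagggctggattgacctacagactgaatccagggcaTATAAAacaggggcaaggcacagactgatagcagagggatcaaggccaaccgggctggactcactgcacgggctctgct

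Among the 8 promoters the cAMP response element core was found in 1, that of Pck1, where it begins 91 bases before the start site, and in 7.51% of all 32851 promoters in the table. Pck1 is known as a target of glucagon acting through cAMP. The HNF1 letters stood in 3 of the 8 promoters, those of Pck1, G6pc and Gckr, and in 7.10% of all promoters. The GATA letters stood in 4 of the 8 and in 11.2% of all, the letters CCACCC in 3 of the 8 and in 31.5% of all, and the TATA letters in 2 of the 8 and in 13.6% of all. The E-box letters were in 0 of the 8 and in 7.15% of all promoters. These are matches of letters and not measured binding sites.

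**Figure D1:**
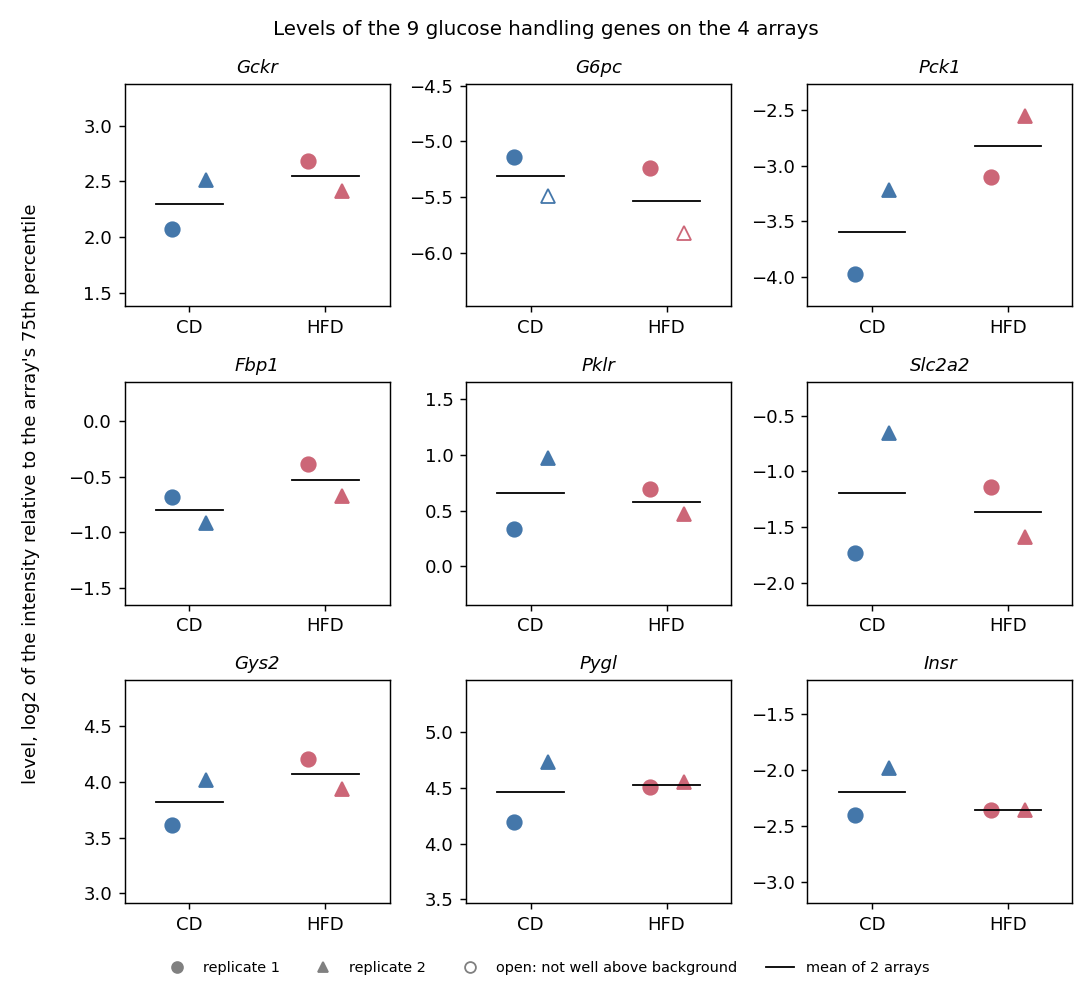
Levels of the 9 genes on the 4 arrays, as log2 of the intensity relative to the array's 75th percentile, with circles for replicate 1, triangles for replicate 2, open symbols for arrays not well above background and lines for the means of 2 arrays. Each panel spans 2 units on the vertical axis. The HFD arrays lie above both CD arrays for Pck1 and Fbp1, and in the other 7 panels the groups overlap.

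The genes of glucose entry and its first steps overlapped between the diets. Slc2a2 encodes GLUT2, the main glucose transporter of hepatocytes, and had levels of -1.74 and -0.66 under CD and -1.14 and -1.59 under HFD. Both HFD arrays lay between the CD arrays, which differed by 1.08, the widest gap within a diet among the 9 genes. The log2 difference between the diets was -0.17, with a 95% interval from -1.28 to 0.94. Gckr encodes the regulatory protein that binds and inhibits the enzyme of glucose phosphorylation in hepatocytes. Its levels were 2.07 and 2.51 under CD and 2.68 and 2.41 under HFD, so that HFD replicate 2 lay under CD replicate 2. The log2 difference was 0.25, with a 95% interval from -0.36 to 0.87 (limma, unadjusted p = 0.33, adjusted p = 1.00).

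Pklr encodes the pyruvate kinase of liver and red cells, the last step of glycolysis. It had levels of 0.33 and 0.98 under CD and 0.70 and 0.47 under HFD, and again the HFD arrays lay between the CD arrays. The log2 difference was -0.07, with a 95% interval from -0.81 to 0.66. This gene is known to have a red cell promoter and, downstream of it, a liver promoter, and since both cell types are present here both are shown, at chr3:89135892-89136191, plus strand, and chr3:89136373-89136672, plus strand. With the same letters searched, the upstream promoter held a GATA motif beginning 35 bases before its start site, and the downstream promoter held a TATA box beginning 31 bases before its own. The single feature of the gene does not separate transcripts from the promoters in these values.
Pklr upstream promoter: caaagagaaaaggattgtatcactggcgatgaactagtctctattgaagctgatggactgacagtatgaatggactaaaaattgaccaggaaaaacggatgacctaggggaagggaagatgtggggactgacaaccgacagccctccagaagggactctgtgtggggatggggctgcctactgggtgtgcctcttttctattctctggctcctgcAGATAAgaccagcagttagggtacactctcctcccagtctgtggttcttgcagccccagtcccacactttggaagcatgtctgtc
Pklr downstream promoter: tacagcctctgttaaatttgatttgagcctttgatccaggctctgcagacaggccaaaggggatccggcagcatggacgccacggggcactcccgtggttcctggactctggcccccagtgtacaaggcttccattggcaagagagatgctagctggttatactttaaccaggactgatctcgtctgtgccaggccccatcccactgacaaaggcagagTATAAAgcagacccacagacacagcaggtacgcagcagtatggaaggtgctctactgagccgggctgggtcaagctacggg

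Glycogen synthesis and breakdown in the liver depend on Gys2, the liver glycogen synthase, and Pygl, the liver glycogen phosphorylase. Gys2 had levels of 3.62 and 4.02 under CD and 4.21 and 3.94 under HFD, with HFD replicate 2 under CD replicate 2. Its log2 difference was 0.26, with a 95% interval from -0.34 to 0.86 (limma, unadjusted p = 0.31, adjusted p = 1.00). Pygl had levels of 4.20 and 4.74 under CD and 4.51 and 4.55 under HFD. The HFD arrays were nearly equal and lay between the CD arrays, and the log2 difference was 0.06, with a 95% interval from -0.57 to 0.70. Of the pair, neither enzyme differed between the diets by more than the gap of the CD arrays, which was 0.41 for Gys2 and 0.54 for Pygl.

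Insr encodes the insulin receptor, which restrains glucose production and favours glycogen storage. Its brighter feature had levels of -2.41 and -1.98 under CD and -2.36 and -2.36 under HFD, and its dimmer feature -5.30 and -4.90 under CD and -5.44 and -5.08 under HFD. The log2 differences were alike, -0.16 for each (limma, unadjusted p = 0.475 and 0.54, adjusted p = 1.00), with a 95% interval from -0.73 to 0.40 for the brighter feature. CD replicate 2 was the highest array for both features. Without CD replicate 1 the brighter feature had a log2 difference of -0.38 and an unadjusted limma p of 0.039 (adjusted p = 0.23), which is under 2-fold. In that fit the spread comes from the HFD arrays alone, and 20.8% of all tested features had an unadjusted p under 0.05.

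Over the 9 genes, the gap between the CD arrays was larger than the difference between the diets for 7, and the same was true of 71.7% of all named genes. The gap between the CD arrays had a median of 0.44 for the 9 genes, beside 0.32 for all named genes, and that between the HFD arrays a median of 0.27, beside 0.10. The interval of each log2 difference reached about 0.63 to either side (median), which does not show equality. The upper or lower limit lay beyond 2-fold for Pck1 and Slc2a2, and G6pc, not measured on 1 array of each group, is not bounded by its interval.

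**Figure D2:**
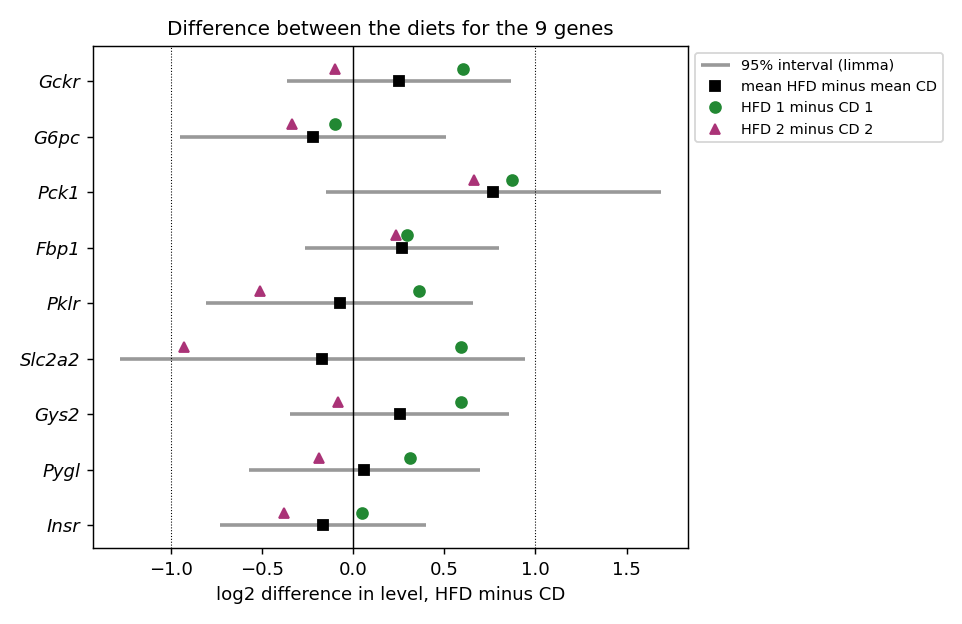
Log2 difference in level between the diets for each of the 9 genes, with squares for the difference of the group means, grey lines for the 95% interval from limma, circles for HFD replicate 1 minus CD replicate 1 and triangles for HFD replicate 2 minus CD replicate 2. Dotted lines mark 2-fold. Circles lie above 0 for 8 genes and triangles for 2, Pck1 and Fbp1.

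Within replicate 1, 8 of the 9 genes were higher on the HFD array, as were 11077 of all 18205 named genes. The median log2 difference of the 9 was 0.36, beside 0.09 over all named genes. Within replicate 2, 2 of the 9 were higher, as were 9608 of all named genes, and the median of the 9 was -0.19, beside 0.02. The 14 hepatocyte markers likewise had a median of 0.41 within replicate 1 and -0.38 within replicate 2. The sign differed between the replicate numbers for 6 of the 9 genes, and for 57.9% of all named genes. Pck1 was higher within both, by 0.87 and 0.66, and so was Fbp1, by 0.30 and 0.24. G6pc had a difference of -0.10 within replicate 1, and on the replicate 2 arrays it was not well above background. Slc2a2 showed the widest disagreement, 0.59 within replicate 1 and -0.93 within replicate 2. Gckr (0.60 and -0.10) and Gys2 (0.59 and -0.08) changed sign with a smaller value in replicate 2. Pklr had 0.36 and -0.51, Pygl 0.31 and -0.19, and Insr 0.05 and -0.38. These are differences of single arrays and carry no test, and sex by the transcripts above and the replicate number cannot be told apart.

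The levels of the genes on the 4 arrays were set beside those of hepatocyte and erythroid markers. After subtracting each gene's mean over the 4 arrays, the median of the 9 genes was -0.30 and 0.09 for CD replicates 1 and 2 and 0.14 and -0.01 for HFD replicates 1 and 2. The same median over the 14 hepatocyte markers was -0.29, 0.32, 0.05 and -0.05. CD replicate 2 was above CD replicate 1 for all 14 of them, for 8 of the 9 erythroid markers, for 7 of the 9 genes and for 55.5% of all named genes. The median of the 9 erythroid markers was -0.22, 0.04, 0.08 and 0.18. As a measure of likeness, the root mean square difference between 2 such profiles over the 4 arrays was taken. Pklr lay 0.06 from the hepatocyte and 0.23 from the erythroid profile, Pygl 0.07 and 0.13, Insr 0.10 and 0.20, and Slc2a2 0.22 and 0.40. Gckr and Gys2 were about equally far from both, while Fbp1 (0.34 and 0.23), Pck1 (0.46 and 0.36) and G6pc (0.39 from each) were farther from the hepatocyte profile than the other 6. The distance of G6pc rests in part on the replicate 2 arrays, where it was not well above background. In RNA from whole liver, fewer cells of a type and less RNA per cell cannot be told apart.

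**Figure D3:**
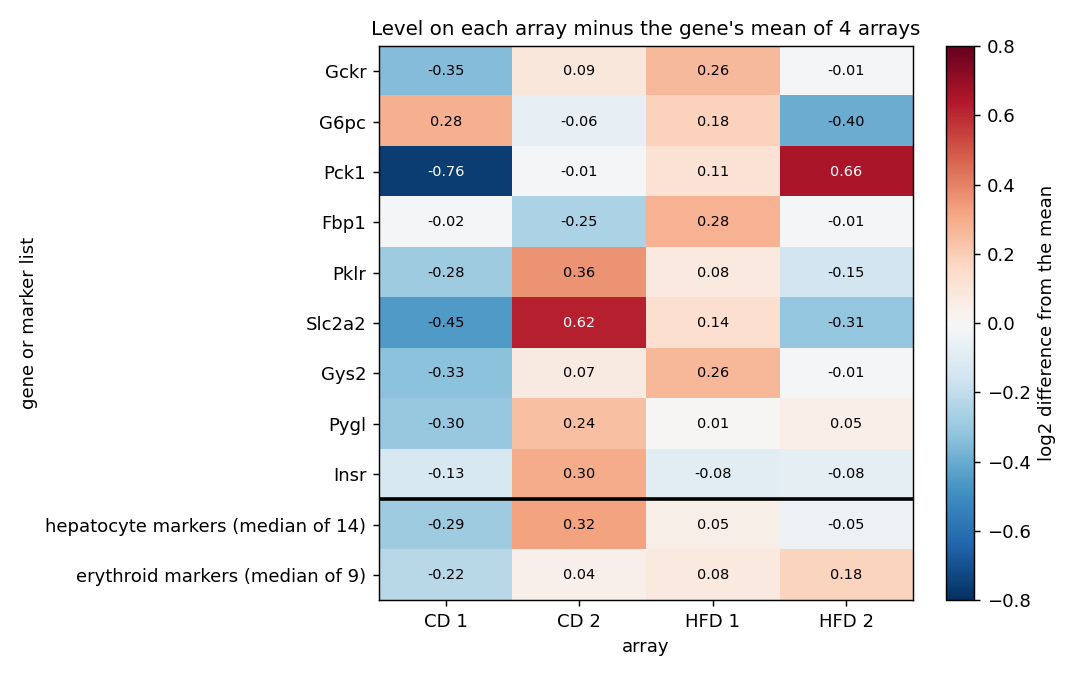
Level of each gene on each array minus the gene's mean over the 4 arrays, in log2 units and colour, with the medians of the 14 hepatocyte and 9 erythroid markers under the line. CD replicate 1 is below the mean for 8 of the 9 genes, and Pck1 runs from -0.76 on CD replicate 1 to 0.66 on HFD replicate 2.

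Each array was also centred on the median level of its 14 hepatocyte markers. Pck1 then had a log2 difference of 0.86, with 0.41 within replicate 1 and 1.31 within replicate 2. Gckr (0.14 and 0.55) and Gys2 (0.13 and 0.57) were then higher within both replicate numbers as well, whereas Fbp1 was not (-0.17 and 0.89). The centring shifts every gene of an array by the same amount. It lowered all differences within replicate 1 and raised all within replicate 2, for Gckr from 0.60 to 0.14 and from -0.10 to 0.55. The medians of all named genes, 0.09 and 0.02 before centring, shifted likewise, so that these signs are not particular to the 9 genes. This centring moved the median of all named genes from 0.04 to 0.13, and the 9 genes from 0.06 to 0.15, and under it Pklr had a log2 difference of 0.02. A second centring, on the median over the markers of each marker's deviation from its own mean, was chosen after seeing the data. It too shifts every gene of an array by the same amount. With it Pck1 had 0.79, and 0.54 and 1.03 within the replicate numbers, Gckr (0.27 and 0.27) and Gys2 (0.26 and 0.29) were again higher within both, Fbp1 had -0.039 and 0.61, and Pklr stayed at -0.06. With quantile normalization Pygl had a log2 difference of -0.04.

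Markers of other tissues were read on the same arrays. The trophoblast list had a median log2 difference of -4.00 over 11 genes. For 10 of them both HFD arrays lay under both CD arrays, beside 10.1% of all named genes. Of this list only Hand1 was read on a feature that passed the filters. The summed signal of the list, in units of the array's 75th percentile, was 17.5 and 61.8 under CD and 4.10 and 1.42 under HFD. Such a sum follows the brightest features of a list and does not give the share of a tissue. It is set only against the same list on the other arrays. The kidney list, of which 10 of 11 genes were well above background on every array and Umod on none, had summed signals of 6.19 and 6.02 under CD and 8.83 and 8.19 under HFD. For 3 of its 11 genes both HFD arrays lay above both CD arrays, beside 23.0% of all named genes, and for the others the diets overlapped. The median log2 difference of the kidney list was 0.47, with 8 genes higher and 3 lower in the HFD group. The 3 genes with both HFD arrays above both CD arrays were Cdh16 (log2 difference 2.10), Slc34a1 (0.47) and Slc5a2 (0.39). Each was higher within both replicate numbers, and Cdh16 was read on a feature that the filters left out. Cubn and Lrp2 had higher HFD means (log2 differences of 0.64 and 0.47). Within replicate 2, Cubn (-0.33), Lrp2 (-0.26), Pax2 (-0.61) and Umod were lower on the HFD array. The other genes of the list were higher there, and the list median was 0.18. The kidney is known to express Pck1, Fbp1 and G6pc. The gut and pancreas list, with organs that use Slc2a2, summed to 9.33 and 7.82 under CD and 8.56 and 9.88 under HFD, with overlapping groups. For the erythroid list the values were 406 and 473 under CD and 497 and 537 under HFD, and for the hepatocyte list 1524 and 2398, and 1863 and 1874. The erythroid list had a median log2 difference of 0.27, with 7 genes higher and 2 lower. The hepatocyte list had -0.05, with 5 higher and 9 lower. Both HFD arrays lay above both CD arrays for 5 of the 9 erythroid and 2 of the 14 hepatocyte markers, beside 23.0% of all named genes. Macrophage markers summed to 23.4 and 28.6 under CD and 26.4 and 25.7 under HFD, with Vsig4 not well above background on any array, and endothelial markers to 24.0 and 23.9, and 25.2 and 27.1. The part of any of these in the levels of the 9 genes was not tested.

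A wider set of 57 genes of glucose handling gave the setting for these members. None of the 57 passed both cutoffs, and 1 had an unadjusted limma p under 0.05, beside 2.84% of all named genes. Both HFD arrays lay above both CD arrays for 21 genes, and below for 4, beside 23.0% and 10.1% of all named genes. The median log2 difference was 0.07, beside 0.04 over all named genes, with 40 genes higher and 17 lower in the HFD group. Counted with the mean of all tested features of a gene, since 29 of the 57 have several, 29 were higher and 28 lower.

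Gluconeogenesis and its regulators had 15 of 16 genes with a higher mean in the HFD group, where 57.6% of all named genes did, and a median of 0.16. Both HFD arrays lay above both CD arrays for 7 of the 16, beside 23.0% of all named genes, and none passed the test. With quantile normalization 12 of the 16 were higher, beside 9364 of all 18205 named genes. With the mean of all features 10 were, beside 9807 of all named genes. The list medians were 0.12 in each case, beside 0.007 and 0.018 over all named genes. The 2 widest differences were those of Pfkfb1 and Got1. Pfkfb1, the liver enzyme that makes and degrades the regulator fructose-2,6-bisphosphate, had levels of 0.30 and 0.48 under CD and 0.78 and 0.69 under HFD (log2 difference 0.35, limma unadjusted p = 0.10, adjusted p = 1.00). Got1, an aminotransferase that moves carbon and reducing power between mitochondria and cytosol, had 2.50 on each CD array and 2.78 and 2.89 under HFD (log2 difference 0.33, limma unadjusted p = 0.10, adjusted p = 1.00). Counterparts of the production enzymes had smaller differences than Pck1. G6pc3, a broadly expressed glucose-6-phosphatase, had a log2 difference of 0.06, Pck2, the mitochondrial counterpart of Pck1, -0.12, and Fbp2, the muscle form, 0.14.

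Of 16 glycogen genes, 9 had a higher and 7 a lower mean in the HFD group, with a median of 0.03. With quantile normalization (median -0.01) and with the mean of all features (median -0.05), 7 were higher and 9 lower. Epm2a, which encodes the glycogen phosphatase laforin, was the 1 gene of the 57 with an unadjusted limma p under 0.05, at a log2 difference of -0.74 (unadjusted p = 0.011, adjusted p = 1.00). It was well above background on CD replicate 1 alone. Its difference and p thus rest on arrays that did not measure it and are not read as a fold change. Ppp1r3b, which targets a phosphatase to liver glycogen, had the next widest difference, with 4.70 and 4.79 under CD and 5.05 and 4.94 under HFD (log2 difference 0.25). Among the counterparts of Gys2 and Pygl in other tissues, the log2 difference was -0.11 for Gys1, -0.21 for Pygb and -0.21 for Pygm.

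Sugar entry and glycolysis had 7 of 12 genes higher and 5 lower, with a median of 0.02 that was -0.03 with quantile normalization. Slc2a1, the GLUT1 transporter of red cells and many growing tissues, had levels of 5.84 and 5.99 under CD and 6.20 and 6.48 under HFD. Its groups did not overlap, and the log2 difference was 0.42 (limma, unadjusted p = 0.08, adjusted p = 1.00). Slc2a9, a urate and sugar transporter, had a log2 difference of 0.38 and was higher within both replicate numbers, by 0.10 and 0.66. Pkm, the pyruvate kinase of most other tissues, had -0.14. The list on insulin signalling had 9 of 13 genes higher and 4 lower, with a median of 0.03. With quantile normalization 6 were higher and 7 lower (median -0.01), and with the mean of all features 5 were higher and 8 lower. Its widest differences were those of Ptpn1, a phosphatase that switches the insulin receptor off (0.28), and Pdpk1, a kinase downstream of it (0.27). Igf1r, the receptor most like Insr, had a log2 difference of 0.01.

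**Figure D4:**
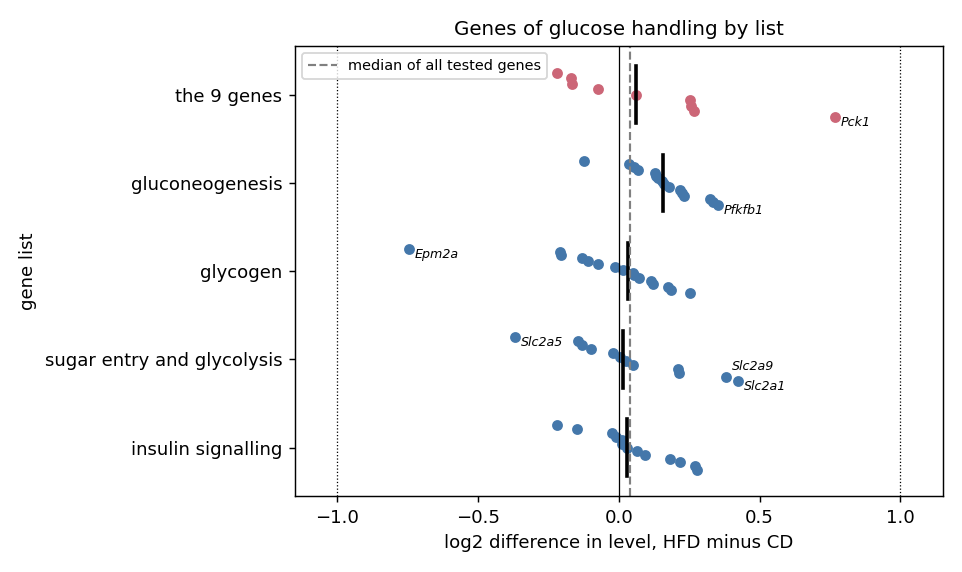
Log2 difference in level between the diets for the 9 genes (red) and for 57 further genes in 4 lists (blue), 1 point per gene, with black bars for the median of each list, a dashed line for the median of all tested genes and dotted lines for 2-fold. No gene reaches 2-fold. The medians of the lists lie between 0.02 and 0.16 with this scaling. With quantile normalization all but that of gluconeogenesis are under 0. Epm2a is drawn although it was well above background on CD replicate 1 alone.

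Among the 57 genes, those whose 4 centred levels lay nearest to the median of the 9 were Gcgr, the glucagon receptor (root mean square difference 0.06), Ppargc1a, a coactivator of gluconeogenic genes (0.06), and Creb3l3, a liver transcription factor (0.08). Their log2 differences between the diets were 0.18, 0.16 and 0.13. The likeness rests on 4 arrays.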

How the data were processed

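Fetal liver RNA was measured on 4 arrays, 2 per diet, grouped and numbered as the sample labels give. The authors processed the scanned Cy3 image with Feature Extraction 11.0.1.1. They deposited a background-subtracted, detrended intensity per spot, with no scaling of one array to another. The deposited files hold scores of 0 or 1 too, which mark outlier spots, saturated spots and spots well above background. The authors further deposited a table of normalized signal, in which each column was the intensity divided by 1 constant per array (within 0.1% for 100% of the 41163 features with 1 spot).

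The log2 intensity was taken, spots with an outlier flag were left out, spots of a feature were averaged, and the 75th percentile of each array's non-control features was subtracted. The filters were modelled on the study's methods, with 2 departures. The methods name a coefficient of variation of a log scale value, where the linear scale was used here, and they exclude a feature compromised in any sample, where here a feature was left out if all its spots on an array were flagged. Features under the 20th percentile on any array (14980 of 56596) or with a coefficient of variation over 50% in both groups (284) were left out, and 41332 were tested. Diets were compared on the log2 scale by lmFit and eBayes of limma 3.58.1 (R 4.3.3), as HFD minus CD without covariates, with Benjamini-Hochberg adjustment over all tested features. The steps were tested on simulated data. The study's text does not name the test used for the arrays. The number of arrays limits the precision.

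Features were named by matching transcripts to RefSeq genes of GRCm38.p6 (32986 of 56605 features, 22909 genes). A gene is represented by its brightest tested feature where 1 value is needed. The members and lists were chosen with earlier results of these data known, and the sex-linked transcripts after their values were seen. The genes named are the members, their counterparts in other tissues, of each list the 2 genes with the largest absolute log2 difference and any past the cutoffs, the 3 genes with the most similar profile, and defining markers. The alternatives were other scalings, background corrections, filters, summaries and tests, the replicate number as a block, and leaving out each array. Tables and plots were made in Python 3.11.15 with pandas 2.3.3, numpy 2.4.6 and matplotlib 3.10.9.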

Additional observations from a re-analysis of the deposited data

How the results depend on the processing

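Among the 9 genes, Fbp1 kept its direction and stayed outside the cutoffs under every alternative run, and Pck1 kept its direction under every alternative and passed the cutoffs under 2 of them, both of which leave out an array. With all 4 arrays kept, the log2 difference of Pck1 lay between 0.40 and 0.86. Direction changed for Pygl with quantile normalization (-0.036) and for Pklr when centred on the hepatocyte list (0.018), though not when centred on the median deviation of the same markers (-0.06). Leaving out each array in turn gave log2 differences from -0.51 to 0.073 for G6pc, -0.39 to 0.25 for Pklr, -0.71 to 0.37 for Slc2a2, -0.21 to 0.33 for Pygl and -0.38 to 0.048 for Insr, and from 0 to 1 members past the cutoffs, with a member median from -0.045 to 0.33. The centring on the median deviation and the 2 settings by replicate number were chosen after seeing the data. The replicate 1 arrays alone reversed Pklr (0.36), Slc2a2 (0.59) and Insr (0.047), and gave a median of 0.36 for the members and 0.15 for the 57 further genes. The replicate 2 arrays alone reversed Gckr (-0.10), Gys2 (-0.082) and Pygl (-0.19), with a member median of -0.19. The median of the 57 genes was 0.019 with quantile normalization, 0.16 centred on the hepatocyte list, 0.0034 with the mean of all features of a gene, and 0.039 to 0.14 when an array was left out. The cause of these changes was not tested.

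Over all features, 318 passed both cutoffs, and the count was 48 with normexp background correction (run on the median brightness, as the mean was not used here), 845 with no percentile filter, 134 with 1 feature per gene, 132 with the mean per gene, 97 by the methods' t-test, 46 with Welch's correction, 656 to 1223 when an array was left out, and 1449 and 2298 features past 2-fold within replicate 1 and replicate 2. With the replicate block, 435 features passed both cutoffs, and Pck1 had an unadjusted limma p of 0.021 at the same log2 difference of 0.77. Deviations of same-numbered arrays had a correlation of -0.10 over 41332 features, and of 0.39 over the 9 genes. The labels name no shared litter, batch or day behind a number, so that the numbers were not taken as pairs in the main fit. The number coincides with sex by the transcripts, which the main fit leaves in the spread within a diet. Slide and scan were not run as a block, since there was 1 slide and 1 scan. Signal over background limits G6pc, which the filter on features well above background left out.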
